A study of Mus musculus with 2 samples.

Results

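*Gm6537*, *Capn9*, *Khdrbs2*, *Gpa33*, *Upb1* and *Megf11* are 6 genes with little known role in taste that were far more abundant in the brighter of the sorted populations of neonatal tongue cells. They were chosen from the 21628 entries of the expression table because their FPKM (a read level corrected for transcript length and library depth) was over 10 times higher in SOX2-GFP high than in SOX2-GFP low cells and at least 5 in SOX2-GFP high cells. All 6 were found, each as 1 entry with a number in both libraries. The study prepared 1 library from SOX2-GFP high and 1 library from SOX2-GFP low cells of the lingual epithelium of pooled Sox2GFP mouse pups at P0, the day of birth (postnatal day 0), with about 100000 cells sorted for each. Both populations carried the same reporter and came from the same pool of pups, no treatment is given in the labels, and the sort separated them by the brightness of the GFP signal. The Sox2-GFP reporter is bright in and around taste buds and dimmer in fungiform papillae and basal keratinocytes, and some cells of the lingual mesenchyme also carry a dim signal, so a brightness gate does not isolate 1 cell type. With 1 library per population there is no replicate check, no p-value is given, and the FPKM ratios that chose the genes are a description. In RNA from sorted pools, more cells expressing a gene and more RNA per cell cannot be told apart.

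The 6 genes belong to unrelated families. *Gm6537* is named *Ccer2*, coiled-coil glutamate-rich protein 2, in the GENCODE M21 annotation. *Capn9* encodes calpain 9, a calcium-dependent cysteine protease known from the surface mucous cells of the stomach, where it works in a complex with calpain 8. *Khdrbs2* encodes SLM1, an RNA-binding protein of the STAR family that, like its relatives SAM68 (*Khdrbs1*) and SLM2 (*Khdrbs3*), controls alternative splicing and is best known from neurons. *Gpa33* encodes the A33 antigen, a surface glycoprotein of the immunoglobulin superfamily best known from intestinal epithelium. *Upb1* encodes beta-ureidopropionase, the last enzyme of pyrimidine breakdown, which turns the ring-opened product of uracil into beta-alanine. *Megf11* encodes a transmembrane protein with repeated EGF-like domains that, with its paralog *Megf10*, is known for spacing neurons of 1 type apart in the retina.

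All 6 lie on the plus strand of the mm10 assembly, as do 49.9% of the 21462 entries found in the annotation. *Gm6537* (ENSMUSG00000096257) spans chr7:28756174-28758968, *Capn9* (ENSMUSG00000031981) chr8:124576111-124618731, *Khdrbs2* (ENSMUSG00000026058) chr1:32172714-32658568, *Gpa33* (ENSMUSG00000000544) chr1:166130238-166166510, *Upb1* (ENSMUSG00000033427) chr10:75401115-75441679 and *Megf11* (ENSMUSG00000036466) chr9:64385626-64709205. They range from 2.795 kb with 5 exons (*Gm6537*) to 323.58 kb with 25 exons (*Megf11*) and 485.855 kb with 9 exons (*Khdrbs2*). The principal transcripts are between 1054 nt (*Gm6537*) and 6680 nt (*Megf11*) long.

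RefSeq promoter sequences (build GRCm38.p6) were found for 5 of the 6 genes, with *Megf11* as the gene without an entry. The *Upb1* window (chr10:75406661-75406910) lies inside the gene span given above, so its start site is not the first base of that span. In the 250 bases before the start site, 9 short sequence words were searched on both strands, namely ACAATG and ACAAAG for SOX factors, TGTTTAC and TGTTTGC for forkhead factors, CCACCCA for GLI factors, TTTATG for CDX factors, CCGGAAG for ETS factors, CAGCTG for bHLH factors and TATAAA for the TATA box. No pair of these words overlapped in the promoters of the 5 genes. *Gpa33* and *Gm6537* are shown because they were the only ones of the 5 with any of the 9 words, which are in capitals. The *Gpa33* promoter (chr1:166129971-166130220, plus strand) holds ACAATG between 109 and 104 bases before the start, a word present in 8.75% of the 19887 promoters of genes in the table. The *Gm6537* promoter (chr7:28755924-28756173, plus strand) holds CAGCTG between 142 and 137 bases before the start, a word present in 12.3% of them. A match of letters is not a binding site, and a word missing from this window says nothing of the factor.
Gpa33 promoter: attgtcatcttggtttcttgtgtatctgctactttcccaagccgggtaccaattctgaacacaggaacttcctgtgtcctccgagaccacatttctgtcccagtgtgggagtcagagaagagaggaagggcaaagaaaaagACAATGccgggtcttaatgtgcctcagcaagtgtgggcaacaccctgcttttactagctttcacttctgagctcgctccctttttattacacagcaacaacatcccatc
Gm6537 promoter: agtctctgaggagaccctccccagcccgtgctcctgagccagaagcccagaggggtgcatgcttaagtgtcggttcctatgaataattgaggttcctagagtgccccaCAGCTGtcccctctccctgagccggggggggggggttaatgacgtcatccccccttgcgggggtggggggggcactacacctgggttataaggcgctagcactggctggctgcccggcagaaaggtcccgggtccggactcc

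The promoters also differed in base composition. *Khdrbs2* and *Capn9* are shown as the highest and the lowest of the 5 by the ratio of observed to expected CpG, with each CpG in capitals. In the *Khdrbs2* promoter (chr1:32172472-32172721, plus strand), 21 CpG were counted, with an observed to expected CpG ratio of 0.742 and 68.8% G and C. The *Capn9* promoter (chr8:124575861-124576110, plus strand) holds 5 CpG, with a ratio of 0.248. The ratio was 0.286 for *Gpa33*, 0.357 for *Gm6537* and 0.359 for *Upb1*, so that *Khdrbs2* alone of the 5 lay above the median over all promoters of the table, 0.556.
Khdrbs2 promoter: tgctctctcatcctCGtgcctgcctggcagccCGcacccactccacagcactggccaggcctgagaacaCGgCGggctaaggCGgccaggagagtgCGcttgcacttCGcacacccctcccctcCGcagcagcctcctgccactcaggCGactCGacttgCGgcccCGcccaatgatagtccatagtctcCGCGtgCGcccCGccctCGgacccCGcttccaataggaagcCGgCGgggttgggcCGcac
Capn9 promoter: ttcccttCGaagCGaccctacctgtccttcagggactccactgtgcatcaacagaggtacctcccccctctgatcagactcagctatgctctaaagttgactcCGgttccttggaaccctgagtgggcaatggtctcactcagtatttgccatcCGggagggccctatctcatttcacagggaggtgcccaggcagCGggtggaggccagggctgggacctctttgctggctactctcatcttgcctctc

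*Gm6537* stood at 14.9 FPKM in SOX2-GFP high and 0.04 FPKM in SOX2-GFP low cells, a ratio of 373 and the largest of all genes with at least 5 FPKM in SOX2-GFP high cells. *Capn9* was next, at 5.42 and 0.04 FPKM, a ratio of 135.5. The *Khdrbs2* values were 12.5 and 0.19 FPKM, a ratio of 65.9. These 3 genes therefore combined a modest level in bright cells with a value near 0 in dim cells.

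*Gpa33*, at 12.3 and 0.32 FPKM, and *Upb1*, at 49.4 and 1.29 FPKM, had almost the same ratio, 38.3 each, at different levels. *Megf11*, at 8.42 and 0.57 FPKM, had the lowest ratio of the 6, 14.8, and held rank 14 by ratio, against ranks 1 to 5 for the others. Over the 6 genes the level in SOX2-GFP high cells ran from 5.42 to 49.4 FPKM, with a median of 12.4, whereas the median of all entries with at least 5 FPKM in that library was 33.7. The level in SOX2-GFP low cells varied more, 32.3-fold, from 0.04 to 1.29 FPKM. *Upb1*, the most abundant, was at rank 3881 by FPKM in SOX2-GFP high cells, and *Capn9*, the least abundant, at rank 10202.

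**Figure D1:**
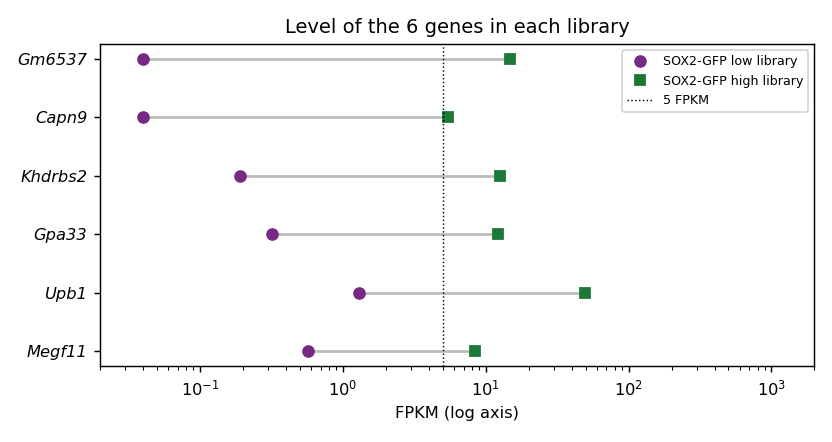
Level of each of the 6 genes in FPKM (log axis) in the SOX2-GFP low library (circles) and the SOX2-GFP high library (squares), with 1 library per population and a dotted line at 5 FPKM. Every gene lies above the line in the bright library, as the rule that chose the genes required, and at 1.29 FPKM or less in the dim library.

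The sample labels give about 75 M reads per library. The low FPKM of short genes with a single transcript fell nearest to the steps of whole reads at about 28 M reads in the SOX2-GFP high and 34.5 M in the SOX2-GFP low library. At these depths 54.0% and 49.4% of the low values lay within 0.15 of a whole read. Some values would lie that near at any depth, so these depths are approximate. At these depths the *Gm6537* value in SOX2-GFP low cells corresponds to about 1 read, against about 357 in SOX2-GFP high cells, and the exact 95% counting interval of its ratio ran from 78.4 to 17422. For *Capn9* the values correspond to about 3 and 323 reads, with an interval of 45.0 to 647. *Khdrbs2* rested on about 14 reads in SOX2-GFP low cells (38.04 to 118) and *Gpa33* on about 26 (25.5 to 58.04). With about 126 and 127 reads in SOX2-GFP low cells, *Upb1* (32.2 to 46.3) and *Megf11* (12.4 to 17.9) were the best measured. The intervals of *Gm6537*, *Capn9* and *Khdrbs2* overlap, as do those of *Capn9*, *Khdrbs2*, *Gpa33* and *Upb1*. Overlap leaves the order within each of these groups undecided by the intervals alone, and pairs of genes were not compared directly. The interval of *Megf11* lies below the other 5. These intervals cover counting error alone and rest on the approximate depths.

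**Figure D2:**
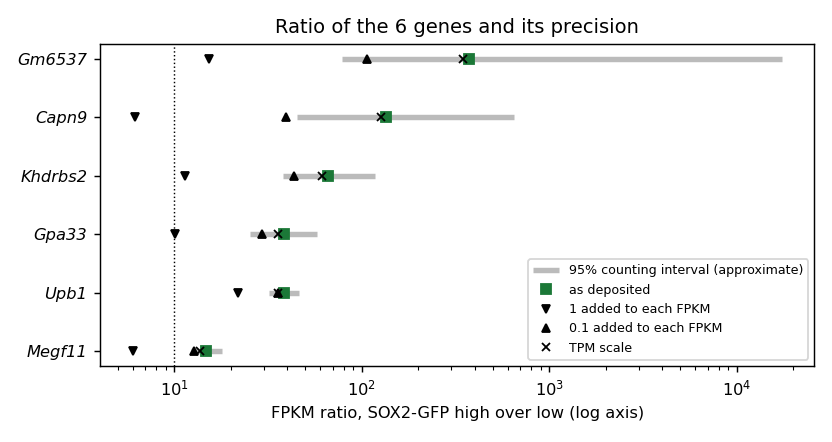
FPKM ratio of SOX2-GFP high over SOX2-GFP low cells (log axis) for each gene as deposited (squares), with its approximate 95% counting interval (grey bars) and the ratio after 1 or 0.1 was added to each FPKM (triangles) or on the TPM scale (crosses), and a dotted line at 10-fold. The bar of *Gm6537* runs from 78.4 to 17422, and with 1 added *Capn9* and *Megf11* fall to 6.17 and 6.

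Reads that could belong to another gene bear on *Gm6537* most. It overlaps *Nfkbib*, an inhibitor of NF-kappa-B that is encoded on the opposite strand, and 26.6% of the 50-nt windows of *Gm6537* transcripts also occur in *Nfkbib* transcripts. *Nfkbib* stood at 50.5 FPKM in SOX2-GFP high and 49.1 FPKM in SOX2-GFP low cells, against 14.9 and 0.04 FPKM for *Gm6537*. Whether reads of *Nfkbib* entered the *Gm6537* values was not tested. The libraries were stranded, but whether the strand was used in the assignment of reads is not given in the sources used here. *Upb1* overlaps *Gucd1* on the opposite strand (22.5 and 19.8 FPKM), with no 50-nt window in common. No window of *Capn9* or *Gpa33*, 1.82% of those of *Upb1* and under 0.5% of those of *Khdrbs2* (0.479%) and *Megf11* (0.393%) occur in transcripts of other genes.

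The genes next to the 6 did not share their difference in size. *Sars2* and *Sirt2*, on either side of *Gm6537*, were at 24.4 and 87.9 FPKM in SOX2-GFP high cells and 29.1 and 96.3 in SOX2-GFP low cells. The neighbors of *Gpa33*, *Dusp27* and *Mael*, were at 0.04 FPKM or less in both libraries. *Agt*, which encodes angiotensinogen and lies 6.41 kb from *Capn9*, was at 1.14 and 0.18 FPKM. Its ratio was 6.33, in the direction of *Capn9*, at levels under 5 FPKM where no ratio can pass. Beside *Upb1*, *Adora2a* was at 0.98 and 0.39 FPKM, also too low to pass, and *Snrpd3* at 116 and 122 FPKM. *Rab11a*, a small GTPase of recycling endosomes that lies 6.09 kb from *Megf11*, was at 1133 and 648 FPKM, and it was the only nearest neighbor to pass 1.5-fold with at least 5 FPKM in the enriched library. *Khdrbs2* has no other measured gene within 795 kb outside its own span, and *Gm5415*, inside it, is listed at 0 in both libraries.

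In the whole table, 21 of the 21611 entries that could be compared, or 0.0972%, were over 10-fold higher in SOX2-GFP high cells with at least 5 FPKM there, and the 6 genes are part of these 21 by choice. In the other direction 77 entries, or 0.356%, passed the same limits. The other 15 hold *Shh* (20.7 and 0.84 FPKM), the GABA transporter gene *Slc6a11* (16.8 and 0.62 FPKM) and the transcription factor gene *Prox1* (5.4 and 0.36 FPKM), all named as taste or progenitor genes by the study, with *Lrmp*. They also hold *Smyd1*, a histone methyltransferase gene of muscle (6.68 and 0.29 FPKM), *Aass*, of lysine breakdown (5.46 and 0.26 FPKM), *Mitf*, *Krt75*, *Stfa1*, *Ifitm1*, *Cyp2t4*, *Cyp27a1*, *Pex5l*, *C130074G19Rik* and *Tspan1*. Just inside the limit were *Cyp27a1* (ratio 10.5) and *Tspan1* (10.1), and just outside it *Unc5a* (9.75), *Cidea* (9.73) and *Ephx4* (9.26). By nearness of the log2 ratio over the 2 libraries, *Gpa33* and *Upb1* were each other's closest gene, at a distance of 0.0016, and *Slc6a11* was the next for both. *Megf11* was closest to *Prox1* (distance 0.022) and *Cyp2t4* (0.039). *Gm6537*, *Capn9* and *Khdrbs2* had no gene outside the 6 among their 2 closest. Ranks 1 to 5 by ratio were all held by the 6, which fixed this in advance. These distances use only the ratio that chose the genes, so nearness does not show shared regulation or expression in the same cells.

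**Figure D3:**
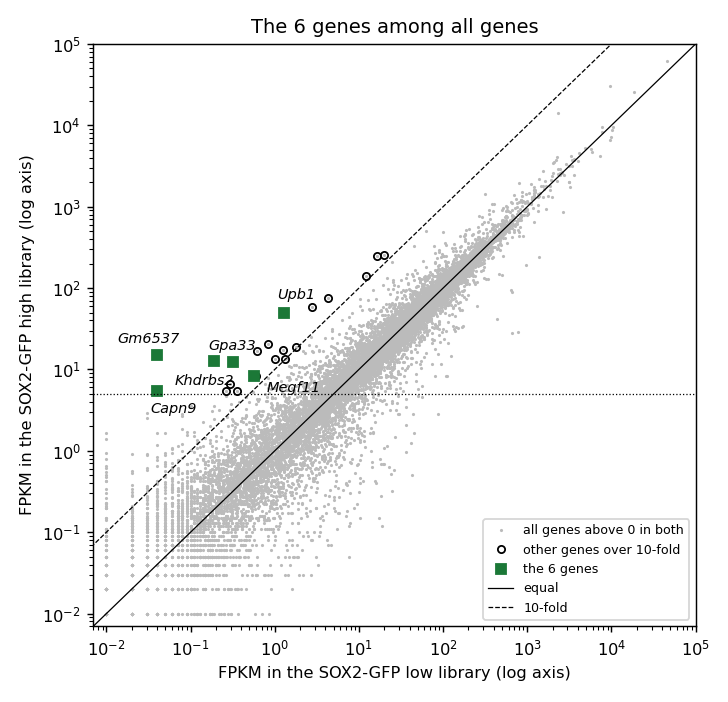
FPKM of each gene above 0 in both libraries (grey points), in the SOX2-GFP low library (horizontal log axis) and the SOX2-GFP high library (vertical log axis), with lines for equal levels, for 10-fold and for 5 FPKM. The 6 genes (squares) and the other 15 genes past the limits (open circles) lie above the 10-fold line, and of these *Gm6537* and *Capn9* lie farthest to the left.

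Each gene was then set beside its family, in which a member was counted as passing when it was at least 1.5-fold higher in a library where it had at least 5 FPKM. Of all entries, 4.72% passed toward SOX2-GFP high and 4.44% toward SOX2-GFP low cells, and the median difference in log2(FPKM + 1), on which low levels are compressed, was -0.02 over the 17299 entries above 0. The family medians below leave out the 6 genes, whose ratios chose them.

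In the calpain system, the protease subunits, the small regulatory subunits and the inhibitor calpastatin were measured as 16 genes. Apart from *Capn9*, 1 passed toward each library and the median log2 difference over the 14 above 0 was 0.47. Calpain 8, the partner of calpain 9 in the stomach, was low in both libraries, with *Capn8* at 1.41 FPKM in SOX2-GFP high and 0.87 in SOX2-GFP low cells. The broadly expressed *Capn1* (205 and 148 FPKM) and *Capn2* (124 and 85.2 FPKM), the small subunit gene *Capns1* (534.5 and 378 FPKM) and the calpastatin gene *Cast* (166 and 119 FPKM) were higher in SOX2-GFP high cells by less than 1.5-fold. *Capns2*, a second small subunit gene, passed toward SOX2-GFP high cells, at 282 and 161 FPKM. *Capn6*, which lacks the catalytic cysteine, passed toward SOX2-GFP low cells, at 28.8 and 59.5 FPKM. *Capn3*, the muscle calpain gene, was at 3.05 and 0.18 FPKM, under the FPKM minimum. *Capn9* thus had a larger ratio but a far lower level than the subunits that make up the common calpains.

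Of the STAR proteins, *Khdrbs2* was the only gene higher in SOX2-GFP high cells. Its paralogs *Khdrbs1* (76.7 and 88.6 FPKM) and *Khdrbs3* (9.52 and 10.7 FPKM) and the splicing factor gene *Sf1* (580 and 708 FPKM) were slightly higher in SOX2-GFP low cells, and *Qk*, which encodes quaking, passed toward them at 43.7 and 70.4 FPKM. In SOX2-GFP high cells *Khdrbs2* and *Khdrbs3* were thus at like levels per length, whereas in SOX2-GFP low cells *Khdrbs3* was the higher. The median over the 4 other genes was -0.25. The FPKM hold no splice forms, so splicing itself was not measured. Of 11 splicing regulators known from neurons, 7 were under 5 FPKM in both libraries, where no ratio can pass. None passed toward SOX2-GFP high cells and 2, *Ptbp2* (14.6 and 22.9 FPKM) and *Celf4* (3.37 and 6.03 FPKM), passed toward SOX2-GFP low cells. *Rbfox1*, *Rbfox3*, *Nova2* and *Elavl2* to *Elavl4* were at 0.37 FPKM or less in both.

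*Gpa33* was compared with 10 other genes of the CTX and JAM surface proteins, which sit at cell contacts. Their median log2 difference was 0.05. *Jam2* passed toward SOX2-GFP high cells (6.99 and 2.91 FPKM), and *Jam3* (0.76 and 10.4 FPKM) and *Igsf11* (1.56 and 10.98 FPKM) toward SOX2-GFP low cells. The most abundant of the family, *F11r* (216 and 161 FPKM), *Vsig8* (109 and 95.7 FPKM) and *Cxadr* (32.2 and 26.4 FPKM), differed by less than 1.5-fold. Of 12 genes of intestinal epithelium, where *Gpa33* is best known, 11 were under 5 FPKM in both libraries. *Cdx1* and *Cdx2*, which encode intestinal homeobox factors, are listed at 0 in both, and *Hnf4a* and *Cdh17* were at 0.07 FPKM or less. The exception, the galectin gene *Lgals4*, was at 40.3 and 29.02 FPKM.

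*Megf11* and its paralog *Megf10* differed in opposite directions. *Megf10* was at 0.29 FPKM in SOX2-GFP high and 3.96 FPKM in SOX2-GFP low cells, under the FPKM minimum, against 8.42 and 0.57 for *Megf11*. Of the other genes of the MEGF and scavenger receptor F proteins, *Megf9* (24.7 and 53.9 FPKM) and *Scarf2* (2.31 and 6.59 FPKM) passed toward SOX2-GFP low cells, and none passed toward SOX2-GFP high cells. *Megf6*, the most abundant, was at 232 and 193 FPKM. The median over the 7 other genes was -1.09.

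**Figure D4:**
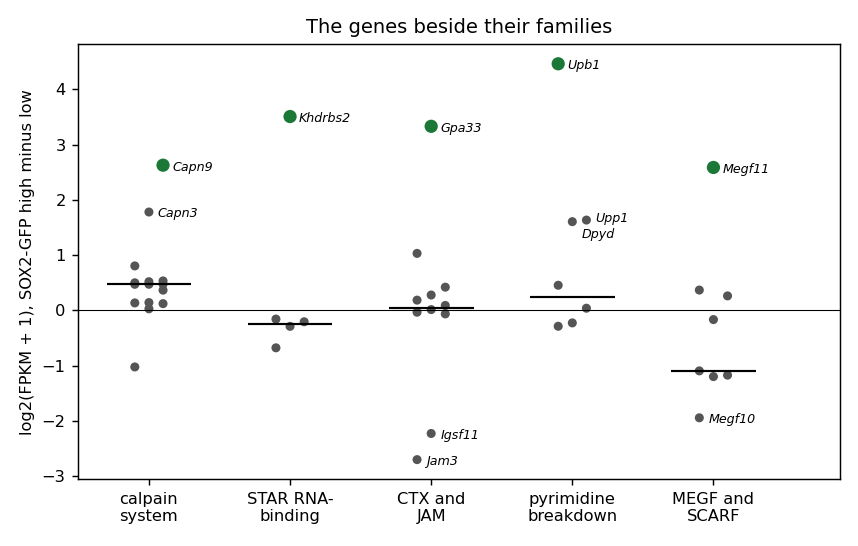
Difference in log2(FPKM + 1) (SOX2-GFP high minus SOX2-GFP low cells) for each gene above 0 of 5 families, with *Capn9*, *Khdrbs2*, *Gpa33*, *Upb1* and *Megf11* as large points and the median of the other genes as a bar. The bars lie between -1.09 (MEGF and SCARF) and 0.47 (calpain system). Each of the 5 genes is the highest of its family, a place that their choice for a high ratio favored in advance. *Gm6537* has no family list.

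*Upb1* was compared with the other steps of its pathway. In pyrimidine breakdown, the uridine phosphorylases release uracil from uridine, dihydropyrimidine dehydrogenase (*Dpyd*) reduces it, dihydropyrimidinase (*Dpys*) opens the ring, and beta-ureidopropionase makes beta-alanine. Of the 6 other genes listed, *Upp1* (12.7 and 3.4 FPKM, ratio 3.72) and *Dpyd* (14.4 and 4.05 FPKM, ratio 3.55) passed toward SOX2-GFP high cells and none passed toward SOX2-GFP low cells. The intermediate enzyme did not follow, since *Dpys* is listed at 0 in SOX2-GFP high and was at 0.17 FPKM in SOX2-GFP low cells. *Upp2* was at 7.29 and 5.05 FPKM, and *Cda* and *Tymp* were at 0.33 FPKM or less in both. The median log2 difference over the 6 was 0.25.

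Genes around this pathway were also listed. Of 10 genes of pyrimidine synthesis and salvage, from *Cad* (65.8 and 87.4 FPKM) to *Tyms* (67.06 and 62.3 FPKM), none passed in either direction. Of 11 genes that use or carry beta-alanine, none passed either, and 6 of them were under 5 FPKM in both libraries, where no ratio can pass. *Abat*, which encodes the transaminase of beta-alanine and GABA, was at 1.26 and 3.03 FPKM, and *Slc6a6*, which encodes a taurine and beta-alanine transporter, at 102 and 134 FPKM. *Nit1* (62.4 and 57.4 FPKM) and *Nit2* (61.3 and 54.01 FPKM), which encode enzymes of the nitrilase family to which beta-ureidopropionase belongs, were at levels close to that of *Upb1* in SOX2-GFP high cells and nearly equal between libraries.

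**Figure D5:**
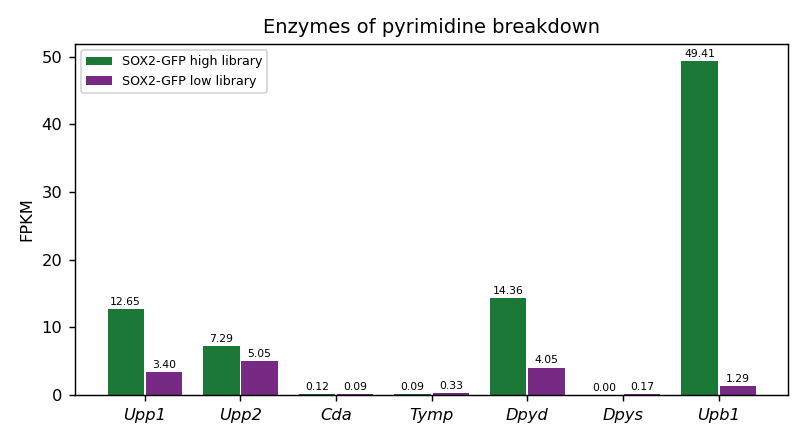
FPKM (linear axis) of the 7 genes of pyrimidine breakdown in the SOX2-GFP high and SOX2-GFP low libraries, 1 library each, with the values above the bars. *Upb1* is the highest bar at 49.4 FPKM, *Upp1* and *Dpyd* are at 12.7 and 14.4 FPKM in the bright library, and *Dpys* is near 0 in both.

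Markers of other cell types also differed between the populations. Of all 17299 entries above 0, 7891 were higher in SOX2-GFP high and 9262 in SOX2-GFP low cells. All 15 taste and progenitor genes named by the study were higher in SOX2-GFP high cells, but they were picked from these libraries. Of 15 genes of mature taste receptor cells 12 were under 5 FPKM in both libraries, 11 were higher in SOX2-GFP high cells without passing, and 2, *Entpd2* (23.7 and 42.2 FPKM) and *Slc1a3* (8.38 and 34.3 FPKM), passed toward SOX2-GFP low cells. Basal keratinocyte genes were abundant in both libraries, with summed levels of 25796 and 32952 FPKM in SOX2-GFP high and low cells. Of 8 suprabasal keratinocyte genes 5 passed toward SOX2-GFP high cells, with summed levels of 47749 and 13828 FPKM. Hemoglobin and other erythrocyte genes were higher in SOX2-GFP high cells in 6 of 6 cases (summed 118 and 41.0 FPKM), and so were 8 of 9 endothelial genes (summed 40.2 and 29.2 FPKM). However, 7 of the 9 endothelial genes were under 5 FPKM in both libraries, and only *Pecam1* passed (5.31 and 2.38 FPKM). Of 10 leukocyte genes 7 were under 5 FPKM in both libraries and 5 were higher in each library (summed 32.7 and 23.7 FPKM). Those that passed were the mast cell genes *Cpa3* (5.89 and 0.99 FPKM) and *Mcpt4* (7.11 and 1.2 FPKM), both toward SOX2-GFP high cells. Fibroblast genes (9 of 9, summed 412 and 1823 FPKM) and Schwann lineage genes (7 of 7, summed 68.01 and 275 FPKM) were higher in SOX2-GFP low cells. All 10 measured salivary and mucous gland genes were under 5 FPKM in both, with *Muc5b* listed at 0. Of 10 neuroendocrine and Merkel cell genes 8 were under 5 FPKM in both libraries, where no ratio can pass. None passed toward SOX2-GFP high cells, and 2, *Isl1* (11.7 and 74.3 FPKM) and *Piezo2* (1.7 and 6.82 FPKM), passed toward SOX2-GFP low cells. The summed levels of this list were 18.04 and 84.2 FPKM in SOX2-GFP high and low cells. By level alone, 5 were higher in SOX2-GFP high cells and 4 in SOX2-GFP low cells. *Krt20*, under 5 FPKM in both libraries, was among the former (2.82 and 0.08 FPKM). In the melanocyte list only *Mitf* passed (17.2 and 1.24 FPKM), the other 5 genes were under 5 FPKM in both libraries, and *Tyr* is listed at 0 in both. In the muscle list 6 of 8 genes were under 5 FPKM in both libraries, and *Tnnt3* alone passed (8.58 and 5.05 FPKM). The part of these cell types in the levels of the 6 genes was not tested.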

How the data were processed

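RNA was sequenced from 1 library of each sorted population. Per the methods and labels, the authors used Trimmomatic 0.36 on the 50-nt single-end reads, GSNAP for mapping to mm10 and Cufflinks 2.2.1 for FPKM, and they deposited FPKM to 2 decimals, in columns named means that were each read as the value of 1 library. The deposited fold score, the authors' own comparison of the FPKM columns, was not used. Of 21628 entries, 17 without a number in a population were left out.

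Ratios, ranks and list medians were computed from the FPKM with Python 3.11.15, numpy 2.4.6, pandas 2.3.3 and scipy 1.17.1. No test was run, since each population has 1 library. The 6 genes, the lists and the named genes (the 6, all genes over 10-fold and the next 3, list members, nearest genes by ratio and by position) were chosen with earlier results of these data known. Positions, transcript lengths and shared 50-nt windows come from GENCODE M21, and promoters from RefSeq. Depth was estimated from single-transcript genes of 400 to 2500 nt, less 200 nt. Read numbers at this depth gave exact (Clopper-Pearson) intervals of the ratios. The procedure was tested on simulated data, in which reads followed the same length correction, so the depths themselves were not checked by it. Protein sequences were not used here. A few genes of the lists are not reported here. The alternatives were other FPKM minimums, pseudocounts and scalings.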

Additional observations from a re-analysis of the deposited data

How the results depend on the processing

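All 6 genes stayed higher in SOX2-GFP high cells under every pseudocount, scaling and rounding limit tried. None of these settings could reverse the direction for genes chosen by a ratio over 10, so this is no check of the difference. Adding 1 to each FPKM lowered the ratio to 15.3 for *Gm6537*, 6.17 for *Capn9*, 11.4 for *Khdrbs2*, 10.1 for *Gpa33*, 22.0 for *Upb1* and 6 for *Megf11*, and adding 0.1 lowered that of *Capn9* to 39.4. By construction an added value lowers a ratio above 1, and more so the lower the SOX2-GFP low level. The other ratios stayed within the counting intervals. The number of genes over 10-fold was 21 as reported, 118 with no FPKM minimum, 72 with a minimum of 1 FPKM and 11 with 1 added. *Capn9* and *Megf11* were no longer among these genes at a minimum of 10 FPKM or with 1 added, and all 6 were under the other settings. Without genes under a mean of 1 FPKM, which left fewer genes, the median of pyrimidine breakdown was 1.60 instead of 0.25. The TPM scale lowers every log2 ratio by the same amount, -0.10. Depth limits *Gm6537* and *Capn9* most, which rest on about 1 and 3 reads in SOX2-GFP low cells. No paired analysis was possible because each population has 1 library.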
